A study of Mus musculus with 12 samples.

Results

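The genes described here encode the enzymes that carry pyruvate and amino acid carbon into and around the tricarboxylic acid (TCA) cycle in brown adipose tissue (BAT) of the mouse. They were chosen by symbol as a fixed list of 32 genes out of the 24197 in the count table. The rule used no measured value, but the list was made with earlier results of these data known. By role, 16 are TCA cycle enzymes, 4 are subunits of the pyruvate dehydrogenase (PDH) complex, 6 are the kinases and phosphatases that act on that complex, and 6 are anaplerotic or amino acid linked enzymes. All 32 were among the 15265 genes that passed the filter on low counts and were tested. The subunits of succinate dehydrogenase are not members and are given with the other genes of the pathway.

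The TCA cycle oxidises acetyl groups in the mitochondrial matrix and passes their electrons to the respiratory chain, which in thermogenic brown adipocytes is uncoupled from ATP synthesis by Ucp1. Pyruvate enters the cycle as acetyl-CoA through the PDH complex, which PDH kinases switch off and PDH phosphatases switch on. Anaplerotic enzymes refill the cycle: pyruvate carboxylase makes oxaloacetate from pyruvate, malic enzymes interconvert malate and pyruvate, and transaminases and glutamate dehydrogenase connect the cycle to amino acids.

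RNA sequencing was done on whole BAT from mice aged 8 to 10 weeks, in 4 groups of 3 libraries. Control mice were Adipoq-Cre-; Ebf2 fl/fl and mutant mice were Adipoq-Cre+; Ebf2 fl/fl, so that both genotypes carried the floxed allele of Ebf2, a transcription factor of the brown fat lineage, and differed by the Cre transgene, whose adiponectin promoter is active in adipocytes. Mice of each genotype were kept at room temperature (RT) or at 4 °C for 1 week. Whether the 3 libraries of a group came from different animals is not stated, and the p-values rest on the spread among the libraries, part of which may be technical.

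The 12 libraries held 25835650 to 37927038 assigned reads, and a floor of 3 counts corresponded to 0.0764 to 0.114 CPM (a read count scaled to the library's size), a limit that covers counting error only. Ebf2 was at 47.4, 64.1 and 32 CPM in control libraries at RT and at 65.2, 45.7 and 38.3 CPM in those labelled mutant, so that the targeted gene did not separate the labels at RT. Gene-level counts can include exons outside the floxed part, which the labels do not give. Why Ebf2 did not separate the labels was not tested. In the cold, Ebf2 was at 52.3, 42.2 and 41.6 CPM in control libraries and 28.7, 21.6 and 27.0 CPM in those labelled mutant, a log2 difference of -0.82 ± 0.25 (adjusted p = 0.153) in edgeR's quasi-likelihood test. By the same test, cold libraries labelled mutant were lower in Ebf2 than RT libraries labelled mutant, with a log2 difference of -0.95 (adjusted p = 0.0226). Leaving out 1 library at a time, this call was kept in 10 of 12 fits. The cold comparison within labelled mutants thus also spans a difference in the targeted gene, whose part was not tested. The genotypes below are therefore those of the labels. All 8 brown adipocyte markers checked were detected in every library. Of 26 skeletal muscle genes checked, all were detected in 7 libraries and 18 to 25 in the other 5, with Myh1, Myh2, Myh4 and Ckm among those at 0 in mutant RT library 2. Their summed level ran from 119 to 33205 CPM and was highest in control RT libraries 1 and 3, mutant RT library 3 and control cold library 3. Mutant cold library 3 stood apart from the other 11 libraries in its summed level of 5 epithelial genes, 239 CPM against 2.62 to 24.1 CPM. Its fibroblast genes were at 2069 CPM against 424 and 531 CPM in the other libraries of its group. Outside its group, control RT library 1 was at 1848 CPM and mutant RT library 3 at 1604 CPM for these genes. Its muscle genes were at 7389 CPM against 262 and 535 CPM in the other libraries of its group. It was kept where the libraries with the highest muscle levels were left out. The lens crystallin gene Cryaa was at 0.255 to 0.432 CPM in the libraries labelled mutant at RT and at 40.6 to 269 CPM in all others. In the same order, the lens genes Crybb2 and Mip were at 0 to 0.153 against 14.2 to 102 CPM and at 0 against 2.09 to 19.2 CPM. Lim2 was at 0 to 0.0721 against 0.824 to 5.23 CPM. Cryab did not follow, at 53.8 to 101 against 27.7 to 265 CPM. The part of the lens genes in comparisons with that group was not tested. In whole tissue, fewer cells of a type and less RNA per cell cannot be told apart.

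Mutant cold library 3 was also low in the members. Summed over the 32 genes, it held 19048 CPM, against 28874 and 32384 CPM in the other libraries of its group and 31267 to 32113 CPM in cold controls. That library was the lowest of its group for 24 of the 32 members, at a median of 68.8% of the mean of the other libraries, and the lowest of all 6 cold libraries for 22. The NAD-linked isocitrate dehydrogenase subunits were the furthest down, with Idh3g at 29.2% and Idh3b at 30.7%, followed by fumarase, Fh1, at 35.1%. 6 members were higher in it than in both other libraries of the group, and the cytosolic Idh1 was at 99.7% of their mean. Ucp1 in that library was at 5867 CPM against 10971 and 11675 CPM. For differences between the cold libraries labelled mutant and other groups, values without it are given beside those with it.

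**Figure D1:**
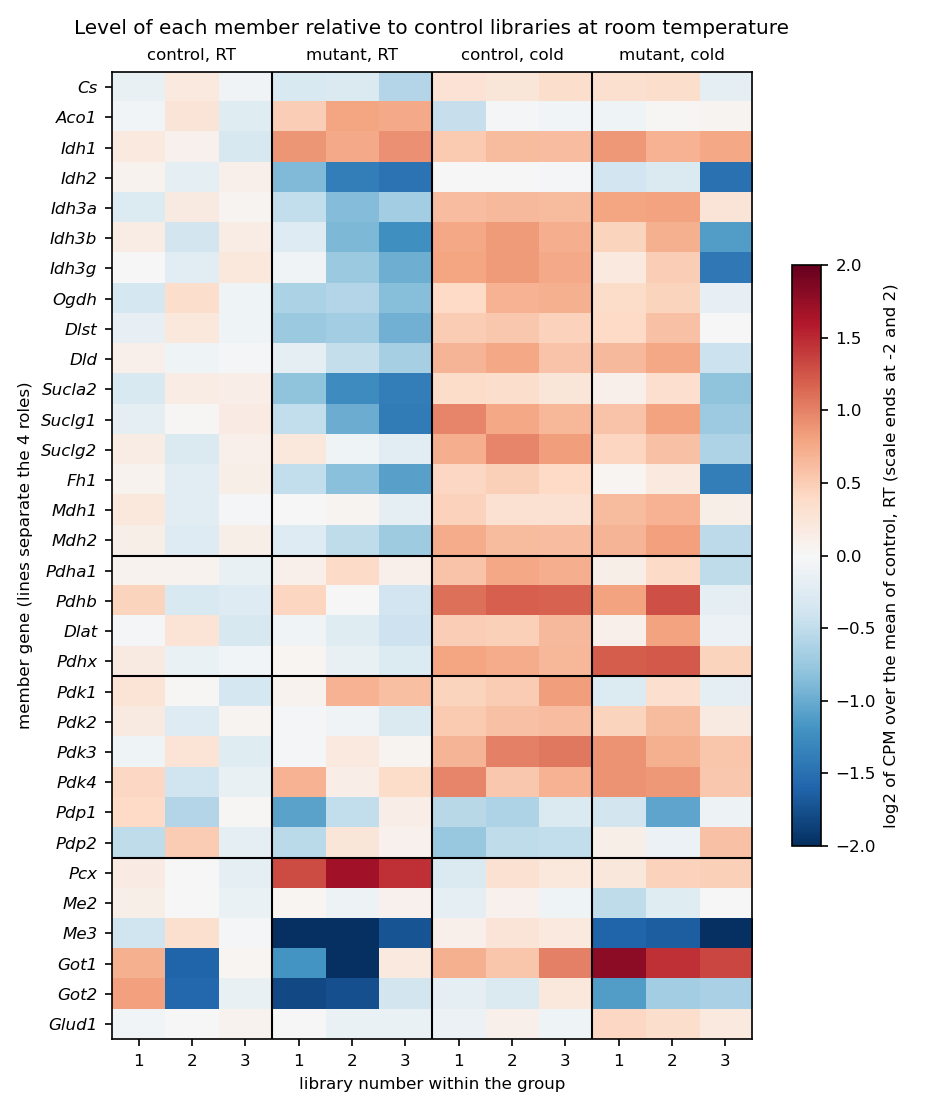
Level of each of the 32 members (rows, in order of role) in each of the 12 libraries (columns), as the log2 of its CPM over the mean of the 3 control libraries at RT; red is higher, blue lower. Most TCA cycle rows are blue in the RT libraries labelled mutant and red in the cold controls, mutant cold library 3 is paler or bluer than the other libraries of its group, and Got1 and Got2 vary within the RT groups.

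Levels of different members were compared per length, as CPM per kilobase of exon (CPM/kb), with exon lengths from GENCODE M21 on GRCm38 while the counts were made on mm9. In control libraries at RT, the gene for citrate synthase, Cs, which condenses acetyl-CoA with oxaloacetate, had the highest mean, 691 ± 89.4 CPM/kb (SD, n = 3). It was followed by the PDH subunit Pdha1 at 627 ± 54.4 and the succinyl-CoA ligase subunit Sucla2 at 625 ± 105 CPM/kb. From Cs to Fh1, the 18th in the order, each member's library range overlapped that of the next one. The lowest were the malic enzyme Me2 at 4.50 ± 0.392, the phosphatase Pdp1 at 2.49 ± 0.810 and the kinase Pdk3 at 0.713 ± 0.131 CPM/kb. In the RT libraries labelled mutant, pyruvate carboxylase, Pcx, was the second in the order at 704 ± 94.3 CPM/kb, where it was the 15th in controls at 251 ± 30.8 CPM/kb. In cold controls the PDH subunit Pdhb led at 1395 ± 43.5 CPM/kb, above the range of the next member.

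**Figure D2:**
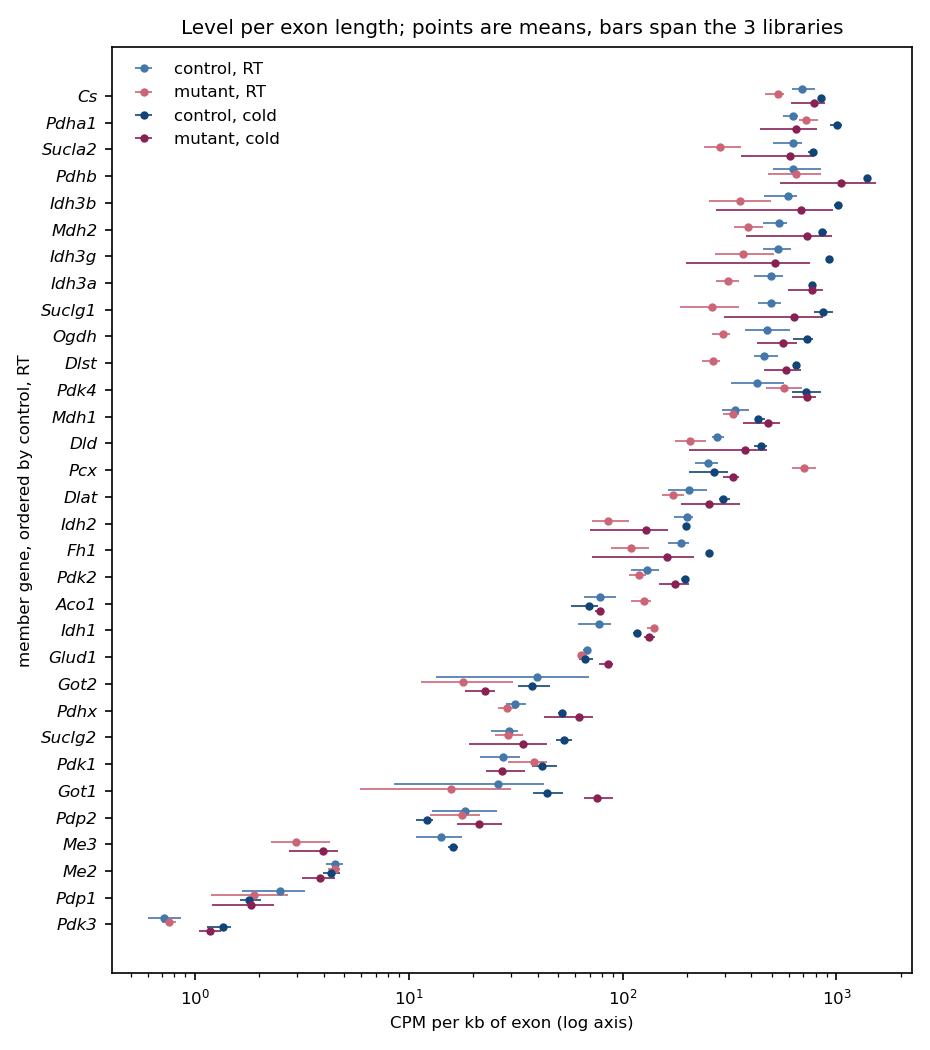
Level per exon length of each member (CPM per kb, log axis), ordered by the mean of control libraries at RT; points are group means and bars span the 3 libraries. The members cover a range from 0.713 to 691 CPM/kb in control RT libraries, and Pcx and Me3 show the RT genotype difference as points that lie away from the control points.

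At RT, most TCA cycle genes were lower in the libraries labelled mutant, while the cytosolic enzymes Idh1 and Aco1 and pyruvate carboxylase were higher. Of the 32 members, edgeR's quasi-likelihood test with Benjamini-Hochberg adjustment over all genes called 3 higher (Idh1, Aco1, Pcx) and 4 lower (Idh2, Dlst, Sucla2, Me3) at an adjusted p below 0.05, where 3.92% of all genes tested were called higher and 2.32% lower. The log2 fold change was negative for 23 members, with a median of -0.31 over the members and -0.04 over all genes tested. Among the 16 TCA cycle enzymes, 14 had a negative log2 fold change and the median was -0.61. Libraries of the genotypes did not overlap for 10 members that were lower and 4 that were higher, where 11.9% and 12.9% of all genes showed this. Fold changes below are log2 differences, mutant minus control or cold minus RT, ± the standard error implied by the F statistic.

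Me3 had the largest difference of the members. It encodes the mitochondrial NADP-dependent malic enzyme. Me3 was at 48.2, 79.7 and 62.9 CPM in control libraries at RT and at 10.2, 10.6 and 19.2 CPM in those labelled mutant. The highest of the latter was below the lowest control, and the log2 difference was -2.25 ± 0.28 (adjusted p = 0.00137), a level 4.77-fold lower. The call was kept in each of the 12 fits that left out 1 library. Leaving out the 4 muscle-rich libraries keeps 1 control library at RT, the one at 79.7 CPM, and the log2 difference there was -2.93.

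Pcx, which carboxylates pyruvate to oxaloacetate, went the other way. It was at 1189, 1074 and 928 CPM in control libraries at RT and at 2624, 3416 and 2925 CPM in those labelled mutant. Every labelled mutant library was above every control, and the log2 difference was 1.49 ± 0.19 (adjusted p = 0.00141), a level 2.81-fold higher. The call was kept in each of the 12 leave-one-out fits, and without the 4 muscle-rich libraries, which leaves 1 control library at RT, the difference was 1.5 (adjusted p = 0.125).

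The stretches of 250 bases before the annotated transcription starts of Me3 and Pcx, as the members with the largest called difference in each direction, and of Idh2 and Dlst, as the members called lower at RT whose window holds the EBF core motif, are shown 5′ to 3′ on the gene's strand in lower case, from RefSeq on GRCm38.p6, with matches to that motif in capitals. Me3 starts after chr7:89632568-89632817 (plus strand), Pcx has starts after chr19:4510222-4510471 and chr19:4594069-4594318 (plus strand), Idh2 lies at chr7:80115351-80115600 (minus strand) and Dlst at chr12:85110583-85110832 (plus strand).
Me3: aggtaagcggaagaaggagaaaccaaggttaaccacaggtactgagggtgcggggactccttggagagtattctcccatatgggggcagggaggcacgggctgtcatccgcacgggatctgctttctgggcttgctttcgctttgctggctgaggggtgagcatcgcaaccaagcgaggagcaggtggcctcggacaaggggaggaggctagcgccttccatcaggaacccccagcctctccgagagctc
Pcx, first start: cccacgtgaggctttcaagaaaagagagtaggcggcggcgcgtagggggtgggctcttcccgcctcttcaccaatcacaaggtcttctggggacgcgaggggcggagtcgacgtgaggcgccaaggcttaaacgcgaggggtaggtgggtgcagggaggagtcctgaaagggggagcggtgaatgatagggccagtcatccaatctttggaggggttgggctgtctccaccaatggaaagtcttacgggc
Pcx, second start: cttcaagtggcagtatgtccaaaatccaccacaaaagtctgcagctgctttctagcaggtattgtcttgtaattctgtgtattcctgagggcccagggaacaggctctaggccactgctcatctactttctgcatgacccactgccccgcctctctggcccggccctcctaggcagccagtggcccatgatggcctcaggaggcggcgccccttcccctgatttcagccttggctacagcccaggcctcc
Idh2: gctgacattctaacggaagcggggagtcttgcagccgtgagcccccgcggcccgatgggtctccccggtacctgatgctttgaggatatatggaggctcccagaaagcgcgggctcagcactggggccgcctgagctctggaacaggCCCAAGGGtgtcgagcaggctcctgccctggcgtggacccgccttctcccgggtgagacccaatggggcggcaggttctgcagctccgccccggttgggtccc
Dlst: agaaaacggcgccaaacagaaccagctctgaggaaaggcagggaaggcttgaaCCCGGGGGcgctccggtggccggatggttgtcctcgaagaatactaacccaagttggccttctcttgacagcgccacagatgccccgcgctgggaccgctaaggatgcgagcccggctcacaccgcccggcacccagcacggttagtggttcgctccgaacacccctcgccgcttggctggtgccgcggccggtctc

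Promoter windows of 300 bases, from 250 before to 50 after a start, were found for 29 of the 32 members (38 windows). Idh3a, Pdp1 and Me2 had no entry. Motifs were searched only in the 250 bases before each start, and the 50 bases after it were not searched. The EBF core CCCNNGGG, searched on both strands, was in the windows of 4 of the 29 members (13.8%), namely Dlst, Idh2, Pdha1 and Pdp2, and in those of 13.4% of all 27025 genes. In Idh2 the match CCCAAGGG lies 103 to 96 bases before the start, and in Dlst the match CCCGGGGG lies 197 to 190 bases before it. Neither Me3 nor Pcx holds these letters in the windows searched. The estrogen-related receptor element TCAAGGTCA was in no member's window and in 0.422% of all genes, and the NRF1 core GCATGCGC was in those of 2 members, Glud1 and Ogdh (6.90%), and of 2.56% of all genes. These matches describe letters in the window and show no binding.

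Idh1 and Idh2, the NADP-dependent isocitrate dehydrogenases of the cytosol and of the mitochondrion, moved in opposite directions at RT. Idh1 was at 219, 204 and 154 CPM in control libraries and 356, 324 and 363 CPM in those labelled mutant, without overlap, and the log2 difference was 0.85 ± 0.14 (adjusted p = 0.00514). Idh2 was at 366, 304 and 372 CPM in control libraries and 187, 133 and 125 CPM in those labelled mutant. Here every labelled mutant library was below every control, with a log2 difference of -1.22 ± 0.27 (adjusted p = 0.0192). The Idh1 call was kept in all 12 leave-one-out fits. The Idh2 call was lost without control RT library 3, mutant RT library 2 or mutant RT library 3, with an adjusted p of up to 0.0966.

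Aco1, the cytosolic aconitase that also acts as an iron regulatory protein, was the other TCA list gene called higher. It was at 290.0, 359 and 253 CPM in control libraries at RT and 421, 518 and 506 CPM in those labelled mutant. The ranges did not overlap, and the log2 difference was 0.68 ± 0.17 (adjusted p = 0.0327). The call was kept in 4 of the 12 leave-one-out fits, those without control RT library 2, mutant RT library 1, control cold library 1 or mutant cold library 3.

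The lower TCA cycle genes included a subunit of 2-oxoglutarate dehydrogenase and one of succinyl-CoA ligase. Dlst, the succinyltransferase (E2) subunit of 2-oxoglutarate dehydrogenase, was at 1131, 1471 and 1192 CPM in control libraries at RT and 759, 785 and 647 CPM in those labelled mutant, a log2 difference of -0.79 ± 0.18 (adjusted p = 0.0204). Sucla2, the ADP-forming beta subunit of succinyl-CoA ligase, was at 1122, 1537 and 1520.2 CPM and 795, 581 and 535 CPM, a difference of -1.13 ± 0.27 (adjusted p = 0.0266). In both, all labelled mutant libraries were below all controls. Each call was kept in 7 of the 12 leave-one-out fits. Both calls were lost without control RT library 2 or 3 or mutant RT library 2 or 3, Dlst also without mutant RT library 1 (adjusted p up to 0.112) and Sucla2 also without control cold library 3 (adjusted p up to 0.126).

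Several further TCA cycle genes were below the controls in every labelled mutant library at RT without passing the test. Idh3a, the catalytic subunit of NAD-linked isocitrate dehydrogenase, was at 1063, 1448 and 1329 CPM in control libraries and 907, 702 and 794 CPM in those labelled mutant, a difference of -0.68 ± 0.19 (adjusted p = 0.0531). Ogdh, the E1 subunit of 2-oxoglutarate dehydrogenase, was at 1659, 2704 and 1986 and 1372, 1407 and 1171 CPM, a difference of -0.68 ± 0.22 (adjusted p = 0.0918). Cs was at 1817, 2317 and 1934 and 1645, 1661 and 1354 CPM, a difference of -0.38 ± 0.18 (adjusted p = 0.259). The other members with non-overlapping lower levels were Dld at -0.43, Suclg1 at -0.92 and Fh1 at -0.78 on the log2 scale. Without mutant cold library 3, a library outside this comparison that shares its estimate of the spread, 11 members were called at RT, the further 4 being Idh3a, Ogdh, Suclg1 and Fh1, all lower; in that fit 5.64% of all genes tested were called higher and 4.11% lower.

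The PDH complex and its regulators did not separate the genotypes at RT by the test. None of the 4 subunits and none of the 6 kinases and phosphatases was called, and their median log2 fold changes were -0.03 and 0.02. Pdha1, the catalytic E1 alpha subunit, was at 1868, 1885 and 1608 CPM in control libraries and 1915, 2323 and 1912 CPM in those labelled mutant, with every labelled mutant library above the controls and a difference of 0.20 ± 0.21 (adjusted p = 0.675). Among the anaplerotic genes, Me2 and Glud1 had log2 differences of 0.01 and -0.09.

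The counts at RT were also taken with the muscle genes in view. Their summed level was 33205, 132 and 23023 CPM in control libraries at RT and 1602, 119 and 25165 CPM in those labelled mutant. With the muscle level as a covariate, 9 members were called at RT, including all 7 named above, where 6.75% of all genes were called. Without the 4 muscle-rich libraries, which leaves 1 control library at RT, 1 member, Me3, and 0.809% of all genes were called. The log2 differences there were 1.5 for Pcx, 0.74 for Idh1, 0.39 for Aco1, -0.92 for Idh2, -0.93 for Dlst and -1.15 for Sucla2, each in the direction seen with all libraries. Got1 and Got2, the cytosolic and mitochondrial aspartate transaminases, varied most of the members within both RT groups. Got2 was at 177, 33.9 and 90.3 CPM in control libraries at RT and 28.8, 29.8 and 77.8 CPM in those labelled mutant, in the same order as the muscle level within the control group, and the difference of -1.14 ± 0.55 (adjusted p = 0.293) did not pass the test.

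**Figure D3:**
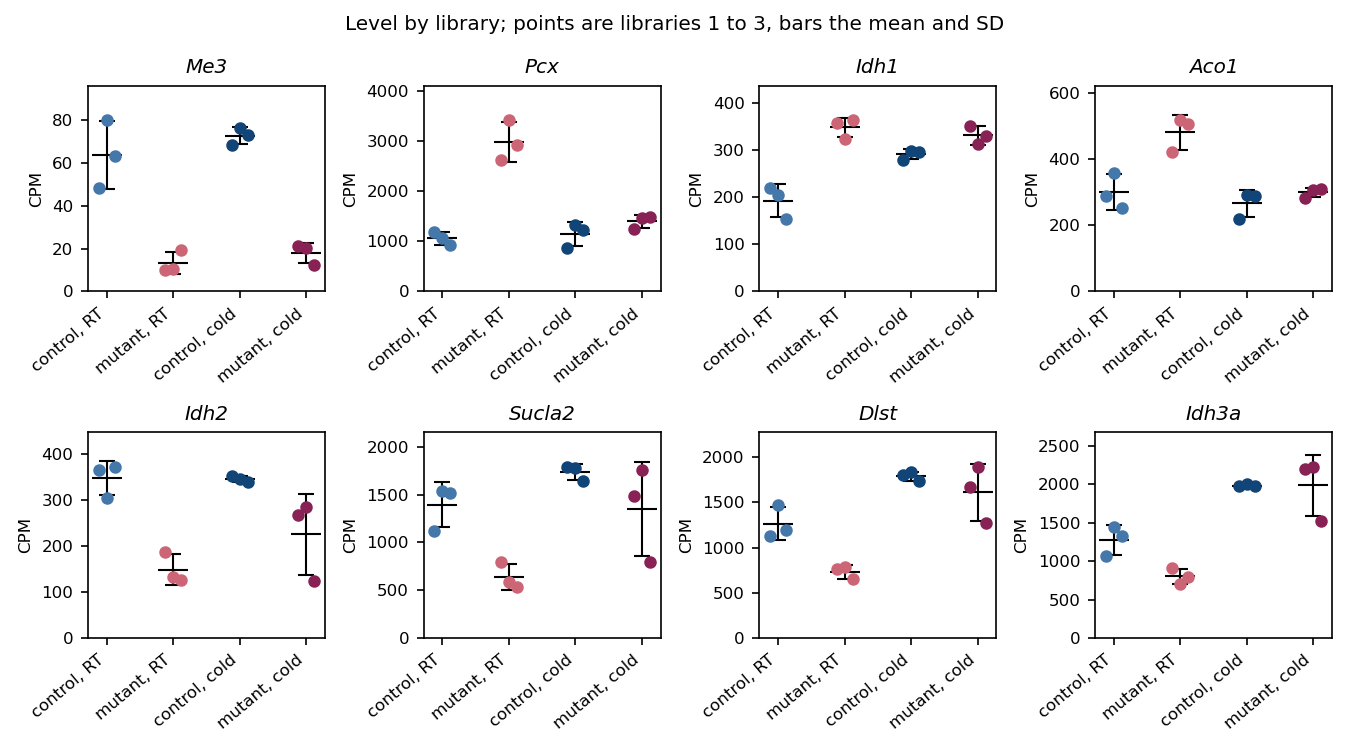
Level (CPM, linear axis from 0) by library of the 7 members called between genotypes at RT and of Idh3a; points are the 3 libraries of each group and bars the mean and SD. At RT the points of Me3, Idh2, Sucla2 and Dlst labelled mutant lie below all control points and those of Pcx, Idh1 and Aco1 above; in the cold Me3 stays apart, and mutant cold library 3 (the rightmost point) is low for Idh2, Sucla2, Dlst and Idh3a.

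In the cold, Me3 was the 1 member called between genotypes. It was at 68.4, 76.2 and 72.9 CPM in cold controls and 21.0, 20.3 and 12.3 CPM in cold libraries labelled mutant, all of the latter below all of the former. The log2 difference was -2.02 ± 0.28 (adjusted p = 0.00728), a level 4.06-fold lower, and the call was kept in all 12 leave-one-out fits, with -1.81 (adjusted p = 0.0174) without mutant cold library 3. No member was called higher, where 0.727% of all genes were called higher and 0.393% lower. An unadjusted p below 0.05 was seen for 7 of the 32 members and for 2343 of the 15265 genes tested. DESeq2 called 2 members, Me3 and Glud1, where it called 4.65% of all genes. The median log2 difference over the members was -0.21, and -0.07 without mutant cold library 3, against -0.01 over all genes tested with all libraries.

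Libraries of the genotypes did not overlap in the cold for 9 members that were lower, where 12% of all genes showed this, and for 4 that were higher, where 12.9% did. The lower ones were Idh2, Idh3b, Idh3g, Suclg2, Fh1, Pdha1, Pdk1, Me3 and Got2, and the higher ones Idh1, Pdp2, Got1 and Glud1. Without mutant cold library 3, the counts were 10 lower and 7 higher, where 19.3% and 19.6% of all genes showed this with the smaller group. Idh1 was the member whose libraries labelled mutant were above all controls at both temperatures, and Me3, Idh2 and Fh1 were those below at both. The share of all genes apart in the same direction at both temperatures was not computed. Idh2 in the cold was at 351, 345 and 338 CPM in controls and 267, 285 and 123 CPM in libraries labelled mutant, a difference of -0.61 ± 0.27 (adjusted p = 0.296), and -0.32 without mutant cold library 3. Idh1 was at 278, 297 and 296 and 349.8, 311 and 329.6 CPM, a difference of 0.19 ± 0.14 (adjusted p = 0.568), and 0.19 without that library.

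Several differences seen at RT were small in the cold. Pcx was at 868, 1319.6 and 1235 CPM in cold controls and 1246, 1459 and 1486 CPM in cold libraries labelled mutant, with overlapping ranges and a difference of 0.29 ± 0.19 (adjusted p = 0.487), and 0.25 without mutant cold library 3. Aco1 was at 219, 293 and 289 and 283, 306 and 311 CPM, a difference of 0.17 ± 0.17 (adjusted p = 0.666), and 0.14 without it. Idh3a was at 1973, 2001 and 1979 CPM in cold controls and 2201, 2230.3 and 1529.8 CPM in libraries labelled mutant, a difference of 0.00 ± 0.19 (adjusted p = 0.998). The difference of Idh3a without mutant cold library 3 was 0.16 (adjusted p = 0.716), with both remaining libraries above all cold controls. For Dlst and Sucla2 the cold differences were -0.15 and -0.37 on the log2 scale, and -0.00 and -0.10 without it. These RT and cold comparisons share no libraries, and whether they differ is given by the interaction test below.

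Cold housing went with higher levels of TCA cycle and PDH genes in controls. All 4 PDH subunits, 14 of 16 TCA cycle genes and 4 of 6 kinases and phosphatases were higher in every cold control than in every RT control, 22 of the 32 members in all, where 18.9% of all genes showed this. No member was lower without overlap, where 14.4% of all genes were. The test called 2 members higher, Idh1 and Pdhx, and none lower, where 4.31% and 2.31% of all genes were called. An unadjusted p below 0.05 was seen for 16 of the 32 members and for 3609 of the 15265 genes tested. The median log2 fold change was 0.59 over the members and -0.01 over all genes tested. None of the 6 anaplerotic genes separated the temperatures in controls, with a median of 0.04.

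Pdhx, the E3-binding protein of the PDH complex, was at 139, 112 and 119 CPM in RT controls and 213, 206 and 195 CPM in cold controls, a log2 difference of 0.73 ± 0.19 (adjusted p = 0.0395). Idh1 rose from the RT values above to 278, 297 and 296 CPM, a difference of 0.59 ± 0.14 (adjusted p = 0.0312). Both sets of libraries were apart without overlap. Both calls were narrow: Idh1 was kept in 3 of the 12 leave-one-out fits (without control RT library 1, mutant RT library 1 or mutant cold library 3) and Pdhx in 4 (without the same libraries or mutant cold library 2). The count depended on mutant cold library 3, which is outside this comparison and enters through the shared spread: without it 16 members were called higher, where 7.27% of all genes tested in that fit were, against 4.31% with it. Over the 12 leave-one-out fits the count of members ran from 0 to 16 and that of all genes from 313 to 1795.

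The members just outside the threshold in controls were mostly PDH genes and their kinases. Pdhb, the E1 beta subunit, had the largest difference of the members, at 1281, 766 and 788 CPM at RT and 2035, 2158 and 2138 CPM in the cold, 1.16 ± 0.34 (adjusted p = 0.0638). Pdha1 was at 2643, 3038 and 2941 CPM in the cold, a difference of 0.69 ± 0.21 (adjusted p = 0.0726). Suclg2, the GDP-forming beta subunit of succinyl-CoA ligase, went from 122, 90.9 and 119 to 184, 217 and 198 CPM, 0.85 ± 0.26 (adjusted p = 0.0689). In all 3 every cold control was above every RT control. Without mutant cold library 3 their adjusted p-values were 0.0127, 0.00969 and 0.00481. In controls the muscle level ran from 132 to 33205 CPM at RT and from 297 to 12771 CPM in the cold. With it as a covariate 1 member, Idh1, was called, where 6.64% of all genes were.

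In the libraries labelled mutant, cold went with higher levels of TCA cycle genes and a lower level of Pcx. The test called 12 members higher (Cs, Idh3a, Ogdh, Dlst, Dld, Sucla2, Suclg1, Mdh2, Pdhx, Pdk2, Got1 and Glud1) and 2 lower (Aco1 and Pcx), where 10.0% and 7.42% of all genes were called. The median log2 fold change was 0.56 over the members and -0.01 over all genes tested, and 0.72 over the 16 TCA cycle genes, of which 8 were called higher. Libraries did not overlap for 11 members that were higher and 2 that were lower, where 16.7% and 16.0% of all genes showed this; without mutant cold library 3 these counts were 23 and 3, where 26.8% and 26.6% of all genes did. Over the 12 leave-one-out fits the count called ran from 4, without mutant cold library 1, to 21, without mutant cold library 3, where 9.43% and 23.4% of all genes were called.

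Idh3a, Dlst, Pdhx and Pcx were called in this comparison in all 12 leave-one-out fits. Idh3a rose from the RT values above to 2201, 2230.3 and 1529.8 CPM, 1.31 ± 0.19 (adjusted p = 0.000827). Dlst rose to 1674, 1893 and 1269.7 CPM, 1.14 ± 0.18 (adjusted p = 0.00127), and was at 1800.3, 1832 and 1732 CPM in cold controls. Pdhx went from 126, 111 and 102 CPM at RT to 283, 287 and 168 CPM, 1.12 ± 0.19 (adjusted p = 0.00211). In each of these the lowest cold library was mutant cold library 3, and it was still above every RT library of the genotype. Without it the log2 differences were 1.47, 1.29 and 1.33. Pcx fell by 1.10 ± 0.19 on the log2 scale (adjusted p = 0.00255) to the cold values given above, all below the RT values, and by 1.14 without mutant cold library 3.

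The calls of the other members that rose were lost in some of the leave-one-out fits. Sucla2 was at 1489, 1758 and 798 CPM in cold libraries labelled mutant, 1.08 ± 0.27 (adjusted p = 0.0159), and at 1792, 1781 and 1644 CPM in cold controls. Ogdh was at 2745, 2897 and 1885 CPM, 0.93 ± 0.22 (adjusted p = 0.0129), and at 2795, 3430.3 and 3453 CPM in cold controls. Cs, which was at 2463, 2400.0 and 2567 CPM in cold controls, was at 2521, 2578 and 1789 CPM in cold libraries labelled mutant, 0.56 ± 0.18 (adjusted p = 0.0483). For these 3 the cold libraries were all above the RT ones, and the differences without mutant cold library 3 were 1.35, 1.10 and 0.71. Suclg1, the alpha subunit shared by both succinyl-CoA ligases, was at 651, 761 and 835 CPM in RT controls, 532, 375 and 283 CPM in RT libraries labelled mutant, 1466, 1278 and 1186 CPM in cold controls and 1109, 1309.6 and 454 CPM in cold libraries labelled mutant, 1.27 ± 0.34 (adjusted p = 0.0226). Here mutant cold library 3 lay within the RT range, and without it the log2 difference was 1.61 (adjusted p = 0.000552).

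Dld and Mdh2 showed the same overlap through that library. Dld, the E3 subunit shared by the 2-oxoacid dehydrogenases, was at 757, 667 and 693 CPM in RT controls, 622, 506 and 447 CPM in RT libraries labelled mutant, 1131, 1200.2 and 1050.4 CPM in cold controls and 1110.3, 1202 and 522 CPM in cold libraries labelled mutant, 0.85 ± 0.26 (adjusted p = 0.0413). Mdh2, mitochondrial malate dehydrogenase, was at 849, 659 and 851, 659, 551 and 482, 1310.3, 1224 and 1203 and 1257, 1394 and 547 CPM in the same order of groups, 0.92 ± 0.28 (adjusted p = 0.0434). Without mutant cold library 3 the log2 differences were 1.14 for Dld and 1.23 for Mdh2, with adjusted p-values of 0.000399 and 0.000394. The calls were kept in 3 and 2 of the 12 leave-one-out fits. Cs was kept in 2, Pdk2 in 4, Got1 and Glud1 in 3, Sucla2 and Suclg1 in 8, and Ogdh and Aco1 in 9.

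Aco1 was lower in the cold in the libraries labelled mutant, -0.68 ± 0.17 (adjusted p = 0.0155) and -0.71 without mutant cold library 3, with no overlap, and in controls its difference was -0.17 ± 0.17 (adjusted p = 0.57). Glud1, glutamate dehydrogenase, was at 221, 228 and 241 CPM in RT controls, 232, 209 and 209 CPM in RT libraries labelled mutant, 212, 247 and 218 CPM in cold controls and 307, 295 and 262 CPM in cold libraries labelled mutant. The last group was above the other 3, and the cold difference in labelled mutants was 0.41 ± 0.12 (adjusted p = 0.0355), and 0.47 without mutant cold library 3. With the replicate block, a term for the library number, the adjusted p of Glud1 was 0.0507 and the call was lost.

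Got1 had the largest cold difference of the members. It was at 88.1, 17.6 and 55.0 CPM in RT controls, 23.3, 12.2 and 61.5 CPM in RT libraries labelled mutant, 87.6, 78.5 and 108 CPM in cold controls and 185, 148 and 135 CPM in cold libraries labelled mutant. The last group was above all other libraries, and its difference from RT libraries of the same label was 2.27 ± 0.65 (adjusted p = 0.0408). Within the RT groups Got1 was low where the muscle level was low, and with the muscle level as a covariate the cold difference was 2.79 (adjusted p = 0.000735). Without mutant cold library 3 it was 2.36 with an adjusted p of 0.0616.

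Side by side, the cold differences in controls and in labelled mutants, which share no libraries, were 0.63 and 1.31 for Idh3a, 0.73 and 1.12 for Pdhx, and 0.58 and 0.56 for Pdk2. For 9 members (Cs, Dlst, Idh3a, Mdh1, Ogdh, Pdhx, Pdk2, Pdk3 and Sucla2) every cold library was above every RT library in both genotypes, and no member was below in both. The share of all genes with this joint pattern was not computed. Taken singly, 18.9% of all genes were above without overlap in controls and 16.7% in labelled mutants. The interaction test, which compares the cold response between genotypes, called 0 of the 32 members in edgeR, where 0.295% of all genes were called higher and 0.183% lower. An unadjusted p below 0.05 was seen for 8 members and for 1869 of the 15265 genes tested. DESeq2 called 3 members, where it called 3.31% of all genes. All 3 had a lower cold response in labelled mutants: Idh1, Pdk1 and Pcx. For Pcx the interaction was -1.20 ± 0.27 (adjusted p = 0.0938) in edgeR and the adjusted p was 0.000792 in DESeq2. For Idh1 it was -0.67 ± 0.20 (adjusted p = 0.21), and for Pdk1 -1.10 ± 0.32 (adjusted p = 0.175). The interactions of Pcx, Idh1 and Pdk1 were -1.25, -0.67 and -1.02 without mutant cold library 3.

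**Figure D4:**
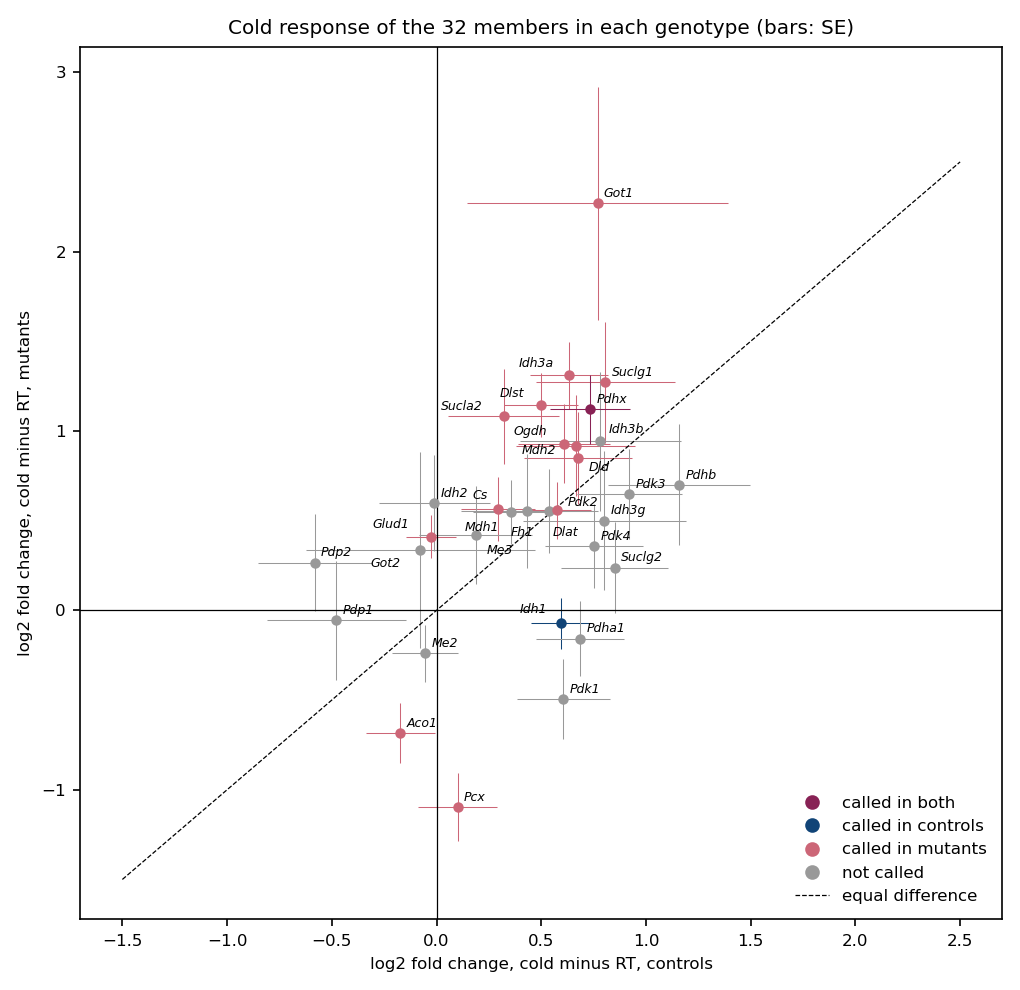
Log2 fold change of each member with cold in control libraries (horizontal) and in libraries labelled mutant (vertical), with standard errors; colour gives the edgeR calls and the dashed line equal differences. Most members lie in the upper right, Got1 is highest at 2.27, and Pcx and Aco1 lie below 0 on the vertical axis.

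Of the PDH kinases, which phosphorylate and inactivate the complex, Pdk2 was called, with cold in labelled mutants. Pdk4, the kinase induced by fasting and fatty acids, had the highest level per length, 426 ± 129 CPM/kb in RT controls, against 131 ± 19.5 for Pdk2, 27.6 ± 5.80 for Pdk1 and 0.713 ± 0.131 for Pdk3. Its levels were 1988, 1122 and 1344 CPM in RT controls, 2412, 1632 and 1909 CPM in RT libraries labelled mutant, 2934, 2168 and 2399 CPM in cold controls and 2780.0, 2702 and 2152 CPM in cold libraries labelled mutant. Every cold control was above every RT control, with a difference of 0.75 ± 0.24 (adjusted p = 0.0773), and the labelled mutants overlapped across temperatures, with a difference of 0.36 ± 0.23 (adjusted p = 0.332), and 0.46 without mutant cold library 3.

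Pdk2 was at 331, 245 and 303 CPM in RT controls, 288, 278 and 239.8 CPM in RT libraries labelled mutant, 422, 439.6 and 451 CPM in cold controls and 400.2, 457 and 331 CPM in cold libraries labelled mutant. It was higher in the cold without overlap in both genotypes, with differences of 0.58 ± 0.16 (adjusted p = 0.0513) in controls and 0.56 ± 0.16 (adjusted p = 0.0313) in labelled mutants, and 0.67 in the latter without mutant cold library 3. Pdk3 was at 1.43, 1.82 and 1.28, 1.48, 1.73 and 1.57, 2.41, 3.03 and 3.12 and 2.80, 2.46 and 2.21 CPM in the same order of groups, with cold differences of 0.92 ± 0.25 (adjusted p = 0.0501) and 0.65 ± 0.25 (adjusted p = 0.101). Its cold libraries were also above the RT ones in both genotypes, and the latter difference was 0.73 without that library.

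Pdk1 was called in no comparison by edgeR. It was at 172, 145 and 112 CPM in RT controls, 151, 230.4 and 216 CPM in RT libraries labelled mutant, 195, 202 and 256 CPM in cold controls and 118, 181 and 125 CPM in cold libraries labelled mutant. In controls the cold difference was 0.61 ± 0.22 (adjusted p = 0.126) and in labelled mutants -0.49 ± 0.22 (adjusted p = 0.155); the genotypes were apart in the cold, with the labelled mutants lower and a difference of -0.62 ± 0.22 (adjusted p = 0.213). The latter differences were -0.41 with cold and -0.54 between genotypes without mutant cold library 3. The phosphatases, which reactivate the complex, were not called in any comparison: Pdp1 ranged from 5.35 to 14.8 CPM and Pdp2 from 61.6 to 156 CPM over the 12 libraries. Pdp2 was higher in every cold library labelled mutant than in every cold control, with a difference of 0.81 ± 0.27 (adjusted p = 0.19), and 0.59 without mutant cold library 3.

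The remaining members were called in no comparison. Mdh1, cytosolic malate dehydrogenase, ran from 619 to 1153 CPM and was closest to a call with cold in labelled mutants, 0.55 ± 0.18 (adjusted p = 0.053); its adjusted p was 0.0474 with the replicate block and 0.00536 without mutant cold library 3. Idh3b and Idh3g, the regulatory subunits of NAD-linked isocitrate dehydrogenase, had cold differences of 0.78 and 0.80 in controls, with every cold control above every RT control, and of 0.94 and 0.50 in labelled mutants, where the groups overlapped through mutant cold library 3 and the differences without it were 1.32 and 0.89. Fh1 and Dlat, the E2 subunit of PDH, had cold differences of 0.43 and 0.54 in controls and of 0.56 and 0.56 in labelled mutants, or 0.91 and 0.73 without it. Me2 stayed between 8.31 and 12.9 CPM in all libraries.

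Ratios of a pair of members within a library do not depend on the library's size, and they are given as a description with no test. The log2 ratio of Idh1 to Idh2 was -0.86 ± 0.37 in RT controls and 1.25 ± 0.31 in RT libraries labelled mutant (SD, n = 3), a difference of 2.11, and -0.25 ± 0.08 and 0.65 ± 0.68 in the cold. At both temperatures the labelled mutants were above the controls without overlap. The ratio of Mdh1 to Mdh2, the cytosolic over the mitochondrial enzyme, showed the same order, at -0.14 ± 0.14 and 0.31 ± 0.17 at RT and at -0.45 ± 0.03 and 0.02 ± 0.42 in the cold. The log2 ratio of Got1 to Got2, again the cytosolic over the mitochondrial enzyme, overlapped between genotypes at RT and was -0.05 ± 0.06 in cold controls and 1.44 ± 0.49 in cold libraries labelled mutant. Leaving out single libraries, the cold genotype difference ran from 0.51 to 1.15 for Idh1 to Idh2, from 0.22 to 0.61 for Mdh1 to Mdh2 and from 1.22 to 1.68 for Got1 to Got2. The lowest values of the first pair of ratios were those without mutant cold library 3, where the Mdh1 to Mdh2 ratio was 0.51 against -0.18 and -0.27 in the other libraries of its group.

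Pcx to Pdha1 sets the transcript of pyruvate carboxylase against that of a subunit of the PDH complex, and the flow of pyruvate was not measured. Its log2 ratio was -0.75 ± 0.09 in RT controls and 0.54 ± 0.08 in RT libraries labelled mutant, and -1.35 ± 0.22 and -0.35 ± 0.52 in the cold. The labelled mutants were above the controls at both temperatures, by 1.00 in the cold and by 0.70 without mutant cold library 3, and the cold libraries were below the RT ones in both genotypes. Sucla2 to Suclg2, the ADP-forming over the GDP-forming subunit, was 9.17 to 16.9 as a linear ratio in RT controls and 5.59 to 6.19 in RT libraries labelled mutant, and 8.20 to 9.75 and 10.0 to 11.1 in the cold. The labelled mutants were thus below the controls at RT and above them in the cold. Idh3a to Idh3g was 1.03 higher on the log2 scale in cold libraries labelled mutant than in cold controls, and 0.62 higher without mutant cold library 3. Pdk4 to Pdk2 overlapped in all 4 comparisons of groups.

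**Figure D5:**
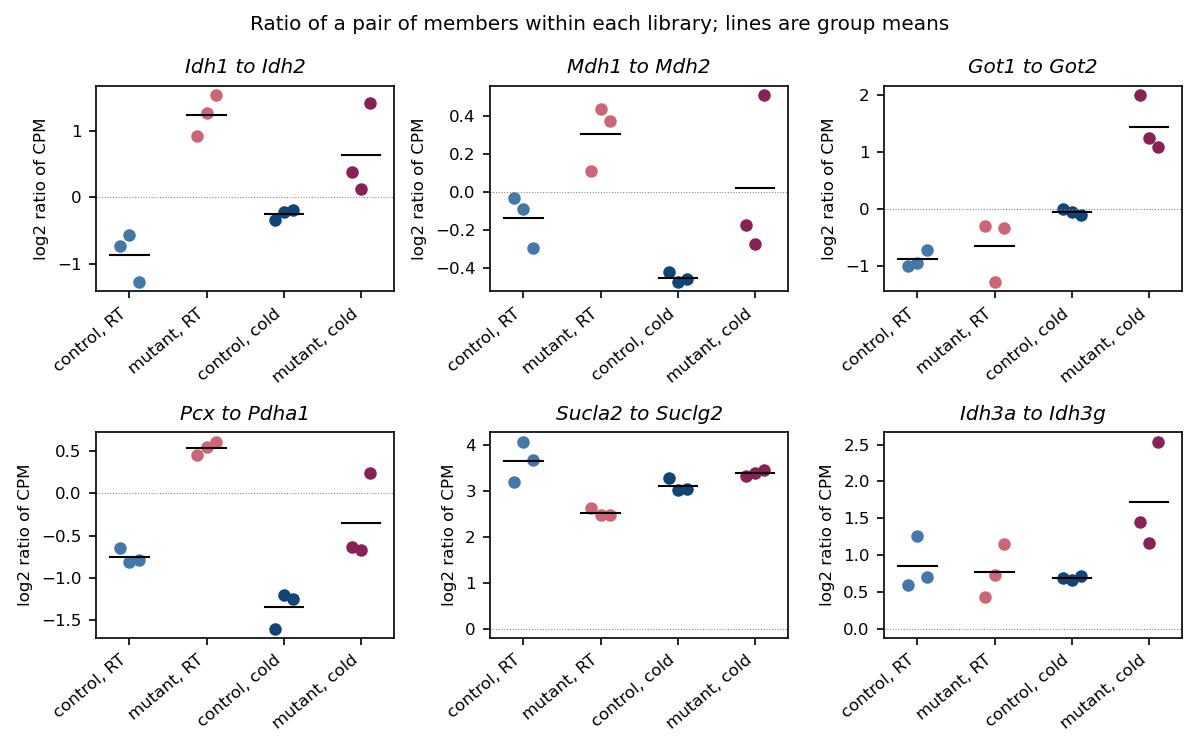
Log2 ratio of CPM for 6 pairs of members in each library (points) with group means (lines); the dotted line marks equal CPM. Idh1 to Idh2, Mdh1 to Mdh2 and Pcx to Pdha1 are higher in the libraries labelled mutant at both temperatures, Sucla2 to Suclg2 is lower in them at RT only, and mutant cold library 3 is the topmost point of its group for every pair but Got1 to Got2.

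The other 29 genes of the pathway that were followed include succinate dehydrogenase, pyruvate and citrate carriers, cytosolic enzymes and lipoylation. At RT, 7 were called higher in the libraries labelled mutant: the citrate carrier Slc25a1 at 1.91, the dicarboxylate carrier Slc25a10 at 3.04, cytosolic malic enzyme Me1 at 1.68, ATP citrate lyase Acly at 1.54, cytosolic phosphoenolpyruvate carboxykinase Pck1 at 0.85, and the alanine transaminases Gpt at 0.50 and Gpt2 at 1.93 on the log2 scale. Lower were the oxoglutarate carrier Slc25a11 at -0.55 and the lactate dehydrogenase subunit Ldhb at -1.18. Over all genes tested, 3.92% were called higher and 2.32% lower. Slc25a1, Slc25a10 and Ldhb kept their calls in all 12 leave-one-out fits. Succinate dehydrogenase was not called at RT: Sdha, Sdhb, Sdhc and Sdhd had differences of -0.40, -0.85, -0.45 and -0.75. In each, every labelled mutant library was below the controls, where 11.9% of all genes showed this. None of the 29 was called between genotypes in the cold, where 0.727% of all genes were called higher and 0.393% lower. An unadjusted p below 0.05 was seen for 6 of the 29 and for 2343 of the 15265 genes tested.

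With cold in controls, 7 of the 29 were called higher and none lower, where 4.31% and 2.31% of all genes were called. The 7 were the mitochondrial pyruvate carrier subunits Mpc1 at 0.93 and Mpc2 at 1.22, Slc25a1 at 1.29, Me1 at 1.30, Acly at 1.87, Ldha at 0.82 and the lipoyltransferase gene Lipt1 at 0.94. With cold in labelled mutants, Mpc2 at 0.77, Lipt1 at 1.18, Ldhb at 1.59, Sdhb at 0.97, Sdhd at 0.81, Pck2 at 0.77 and Slc25a11 at 0.51 were called higher. Slc25a1 at -1.19, Slc25a10 at -1.69 and Pck1 at -0.96 were called lower, where 10.0% of all genes were called higher and 7.42% lower. Leaving out mutant cold library 3, Pck2 at 0.57 (adjusted p = 0.059) was no longer called and the other 9 were. Without that library the differences were 0.96 for Mpc2, 1.32 for Lipt1, 1.68 for Ldhb, 1.25 for Sdhb and 1.03 for Sdhd. They were 0.57 for Slc25a11, -1.03 for Slc25a1, -1.93 for Slc25a10 and -0.96 for Pck1. Ucp1, given for reference, was lower in RT libraries labelled mutant, with a log2 difference of -1.77 ± 0.39 (adjusted p = 0.0199), and rose with cold by 1.42 ± 0.39 (adjusted p = 0.0492) in controls and 2.86 ± 0.41 (adjusted p = 0.000793) in labelled mutants, or 3.11 in the latter without mutant cold library 3. The epithelial genes Krt8 and Epcam were at 79.3 and 18.9 CPM in mutant cold library 3 and at no more than 9.90 and 3.37 CPM in the other 11 libraries.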

How the data were processed

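Total RNA of BAT was sequenced in 12 libraries, 3 for each of 4 groups by genotype and temperature, taken from the labels. The deposited file holds raw read counts per gene symbol; per the submitters' processing notes, the authors used STAR, featureCounts and mm9, with versions, annotation, strand setting and treatment of multiply mapped reads not given in the sources used here. The number of count columns without a sample was 0. Library totals are in the report, and no 2 libraries of a group agreed within counting noise (chi-square per degree of freedom 38.2 to 234).

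Counts were filtered with filterByExpr (minimum count 10, minimum total 15), scaled by TMM and fitted with edgeR 4.0.16 in R 4.3.3 (glmQLFit in its legacy form, robust; glmQLFTest, two-sided), with 1 coefficient per group over all 12 libraries, and p-values were adjusted over all 15265 genes. Genes were called at an adjusted p below 0.05. CPM use TMM-scaled totals. In simulated counts for the RT genotype comparison (15067 genes), 4.48% of 1.5-fold, 26.9% of 2-fold and 78.8% of 4-fold changes were recovered with 2 false calls. Only 67, 67 and 66 genes were changed, all with a mean above 1 CPM. Each gene was drawn independently, without shared differences such as muscle content, so recovery and false calls in the data may differ. Alternatives were RLE size factors, no filter or CPM of at least 1 in 3 libraries, a replicate block, the muscle level as a covariate, leaving out the 4 muscle-rich libraries or each library, fitting only the groups compared, and DESeq2 1.42.0.

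Library numbers are shared by the groups in the labels, which do not say what they mean. Same-numbered libraries of both genotypes at RT deviated together (correlations 0.16, 0.72 and 0.49), those in the cold did not all (-0.03, 0.21 and 0.49), and a different log scale moved some across 0.1, so the pairing was not settled and blocked counts are given below.

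All 12 values are given for members called in at least 1 comparison and for the Pdk genes, other members by range or difference, and other pathway genes by value where called; further values were chosen after they were seen. The members, gene lists and motifs were chosen with earlier results of these data known. A gene of the wider pathway list is not reported here by name.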

Additional observations from a re-analysis of the deposited data

Results flagged for a closer look

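For 2 genes outside the list of members, the cold response differed between genotypes by edgeR's interaction test. Slc25a1, the mitochondrial citrate carrier, was higher in the cold in controls (1.29) and lower in the libraries labelled mutant (-1.19), an interaction of -2.48 on the log2 scale (adjusted p = 0.0103), which was called in 10 of 12 leave-one-out fits. Ldhb was higher in the cold by 0.41 in controls and 1.59 in labelled mutants, an interaction of 1.19 (adjusted p = 0.0449), called in 2 of 12. Without mutant cold library 3 the interactions of Slc25a1 and Ldhb were -2.32 and 1.27.

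For a further pair, every library labelled mutant was above every control at RT and below every control in the cold, while the interaction test did not call them. The share of all genes with such a reversal was not computed. Pdha1 had genotype differences of 0.20 at RT and -0.65 in the cold, an interaction of -0.84 (adjusted p = 0.266); without mutant cold library 3 the cold difference was -0.43. Mpc1 had 0.35 and -0.55, an interaction of -0.90 (adjusted p = 0.137).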

How the results depend on the processing

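The direction of each gene's difference was kept in every alternative run for the members and pathway genes at or near a call, but the number of members called was not stable, and the cause of each change was not tested. For the genotype at RT (7 called), 1 was called without the 4 muscle-rich libraries, and 3 to 11 when 1 library was left out. Over the same leave-one-out fits, 395 to 1512 of all genes were called for the genotype at RT. For the genotype in the cold (1 called, and 1.12% of all genes), DESeq2 called 2 members and 4.65% of all genes. Leaving out 1 library gave 1 member in each case, and 28 to 203 of all genes. For cold in controls, 2 members and 6.62% of all genes were called. The member count was 0 without the low count filter (4.27% of all genes), 1 with the muscle covariate (6.64%) and 4 with the stricter filter (7.98%). It was 10 with only the groups compared (8.04%) and 11 with DESeq2 (13.3%). When 1 library was left out it ran from 0 to 16, and the count over all genes from 313 to 1795. For cold in labelled mutants, 14 members and 17.4% of all genes were called. The member count was 6 with only the groups compared (11.2% of all genes). It ran from 4 to 21 when 1 library was left out, and the count over all genes from 1466 to 3630. For the interaction (0 called), DESeq2 called 3 members and 3.31% of all genes, against 0.478% of all genes in edgeR, and the leave-one-out range was 0 to 0. Leaving out a library lowers the number of libraries that set the spread, and leaving out the muscle-rich ones leaves 1 control library at RT, which is then assumed to vary like the other groups.

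With the replicate block, 7, 1, 4, 14 and 0 members were called in the genotype comparisons at RT and in the cold, cold in controls and in labelled mutants, and the interaction. In the same order, 5.72%, 0.819%, 6.64%, 17.5% and 0.223% of all genes were called. For cold in controls the 4 included the 2 called without the block. Of the 14 in labelled mutants, 13 were also called without the block; Glud1 was lost (adjusted p = 0.0507) and Mdh1 was gained (adjusted p = 0.0474). Over all genes tested, the RT genotype count was 952, against 1651 with DESeq2, 552 with only the groups compared and 129 without the muscle-rich libraries. Leaving out mutant cold library 3 raised the counts over all genes as well, to 1512 for the genotype at RT, 1795 from 1010 for cold in controls and 3630 from 2663 for cold in labelled mutants. Depth limits Pdk3 most, with 42 to 92 reads a library; all other members had at least 150.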
